A study of Mus musculus with 8 samples.

Results

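The genes of MHC class II presentation were followed in conventional dendritic cells (cDC) that carry CD103 and CD11b, sorted from the mesenteric lymph nodes of mice and measured on 8 microarrays. The set held 10 named genes: the class II chains H2-Aa, H2-Ab1 and H2-Eb1, the invariant chain Cd74, the peptide-editing chains H2-DMa, H2-DMb2, H2-Oa and H2-Ob, the transactivator Ciita, and the ubiquitin ligase March1, which the array's annotation writes as Marchf1. A gene entered through a probe set that names that gene alone, and 9 of the 10 genes did so, out of 22180 genes measured in this way. The only probe set of Cd74 also names a microRNA gene, so Cd74 has no value here. Each of the 9 genes had 1 such probe set.

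Of the 8 arrays, 4 were made from mice carrying the hBcl-2 transgene, human BCL2 driven by the CD11c promoter, and 4 from wild-type littermates. All mice were C57BL6 males aged 8 weeks on control chow. For every array 2 to 3 samples were pooled, so n = 4 pools in either group. Nothing in the labels says which animals entered which pool, and the tests therefore measure the spread between these pools. BCL2 blocks the mitochondrial route to apoptosis, and CD11c is an integrin of dendritic cells that some other leukocytes also carry. The array's probes are made for mouse transcripts and do not check the genotype.

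MHC class II molecules are pairs of an alpha and a beta chain that show peptides from engulfed proteins to CD4+ T cells. New pairs are filled by the invariant chain, which is cut away in endosomes, and H2-DM then exchanges the remaining fragment for antigenic peptides while H2-O restrains H2-DM. CIITA does not bind DNA itself. It is recruited to an assembly of RFX, CREB and NF-Y on the X and Y boxes of class II promoters, and cells without it make almost no class II. In conventional dendritic cells the surface amount is also set by MARCH1, which tags class II for breakdown and is switched off on maturation.

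The promoter windows are shown because CIITA is recruited to these boxes at class II promoters. Its action on the genes measured below was not tested. RefSeq windows of GRCm38.p6, holding 250 bases before to 50 after an annotated start, were used for 7 members. H2-Ab1 and Ciita had none, and Cd74, which has no value here, was left out. Short runs of letters were searched on both strands: GCAAC, which lies within the X box, and TGATTGG, which covers the core of the Y box. Capitals below mark them.
H2-Aa: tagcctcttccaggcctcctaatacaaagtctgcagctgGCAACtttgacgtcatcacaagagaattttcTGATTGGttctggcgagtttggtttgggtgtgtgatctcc
H2-Eb1: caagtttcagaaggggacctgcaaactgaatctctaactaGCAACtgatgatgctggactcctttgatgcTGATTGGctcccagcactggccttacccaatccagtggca
H2-Oa: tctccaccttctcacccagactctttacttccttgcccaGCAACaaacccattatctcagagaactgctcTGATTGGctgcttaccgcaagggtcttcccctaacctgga
H2-Ob: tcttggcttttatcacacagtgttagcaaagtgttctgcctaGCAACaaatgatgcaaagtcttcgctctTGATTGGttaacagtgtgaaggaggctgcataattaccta
H2-DMb2: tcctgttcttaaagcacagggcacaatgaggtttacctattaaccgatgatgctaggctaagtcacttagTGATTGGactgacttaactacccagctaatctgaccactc
H2-DMb1: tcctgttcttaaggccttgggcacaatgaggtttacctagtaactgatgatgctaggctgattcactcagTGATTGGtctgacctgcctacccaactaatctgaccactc
H2-Eb2: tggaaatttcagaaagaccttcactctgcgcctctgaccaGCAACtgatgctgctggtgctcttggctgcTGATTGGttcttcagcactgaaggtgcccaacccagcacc
The stretches run 5′ to 3′ on the strand of the gene and lie at chr17:34287834-34287943 (minus strand) for H2-Aa, chr17:34305736-34305845 for H2-Eb1, chr17:34092264-34092373 for H2-Oa, chr17:34238776-34238885 for H2-Ob, chr17:34145087-34145196 for H2-DMb2, chr17:34153058-34153167 for H2-DMb1 and chr17:34325503-34325612 for H2-Eb2, all but H2-Aa on the plus strand. H2-Eb2 and H2-DMb1 are not members and are shown as the neighbours of H2-Eb1 and H2-DMb2, with which they share 58 and 96 of 110 bases when aligned at the Y box letters. In H2-Aa, H2-Eb1, H2-Oa, H2-Ob and H2-Eb2 both runs were present in that order, with 23 to 26 bases between them. Of 32851 windows of all genes, 0.256% held GCAAC followed by TGATTGG after 15 to 40 bases on either strand, 35.2% held GCAAC and 7.82% held TGATTGG. The runs and their spacing were chosen with the sequences in view, so these shares do not test the match. The windows of H2-DMb2 and of its neighbour H2-DMb1 held TGATTGG without GCAAC, and the windows of H2-DMa and Marchf1 did not hold TGATTGG. A match of letters is a description of the sequence, and a window without one says only that these letters are not in it.

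**Figure D1:**
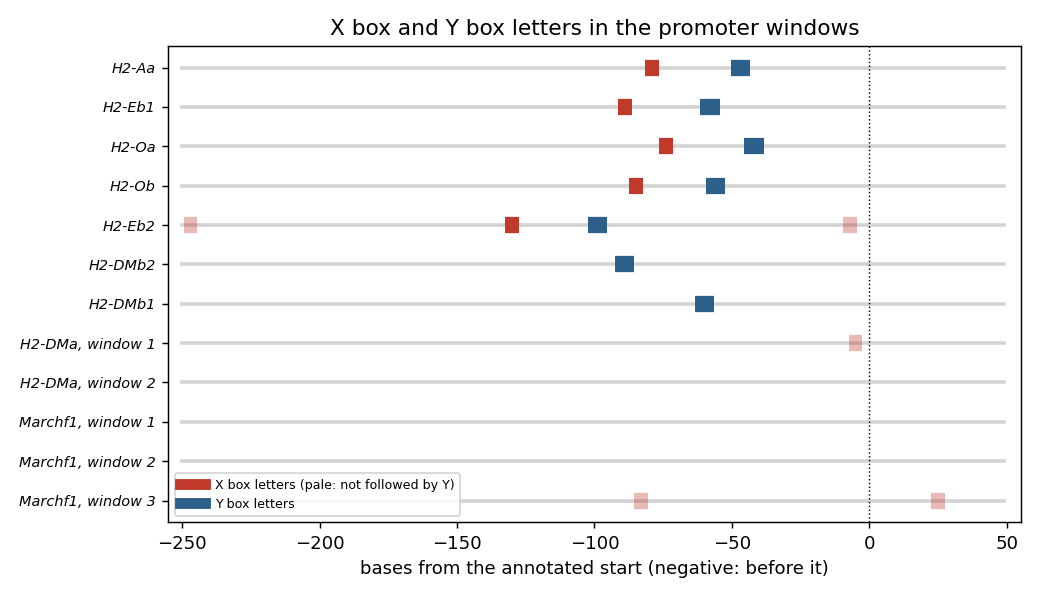
Positions of GCAAC (X box letters, red) and TGATTGG (Y box letters, blue) on either strand of 12 promoter windows, in bases from the annotated start; pale marks are X box letters with no Y box letters 15 to 40 bases after them. In H2-Aa, H2-Eb1, H2-Oa, H2-Ob and H2-Eb2 the X box letters lie 23 to 26 bases before the Y box letters, and both lie before the start.

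Levels are given as deposited log2 values. Array medians over all probe sets ran from 5.04 to 5.15. Transgenic replicate 4 stood apart, with an SD of its values of 2.00 while the remaining 7 arrays had 2.07 to 2.11, so each member's difference is also given without it. It was the lowest transgenic array for 28.4% of all genes and for 43% of genes at or above the median gene. The labelled cell type was checked against 14 markers of these cDC, of which 0 passed limma's adjusted test. At an unadjusted p below 0.05 in limma there were 3, against 13.2% of all genes. They were Flt3 and Zbtb46, which were lower in transgenic arrays, and Cd24a, which was higher (log2 fold 0.70, limma adjusted p = 0.209). Of the 14, 7 had a negative fold. Flt3 (10.27 to 11.23), Zbtb46 (8.07 to 8.85), Itgax (8.80 to 9.42) and Ccr7 (12.94 to 13.12) were bright on every array, while the transcripts of the sorting markers, Itgae (5.17 to 5.90) and Itgam (5.38 to 5.76), were dim in both groups. The cytokine receptor gene Flt3 was at 10.93, 10.82, 10.95 and 10.27 on transgenic replicates 1 to 4, against 11.13, 11.10, 11.23 and 10.97 on wild-type replicates 1 to 4, and these groups did not overlap (log2 fold -0.37, limma adjusted p = 0.350). Zbtb46, a transcription factor of conventional dendritic cells, was at 8.51, 8.07, 8.80 and 8.11 in transgenic arrays, against 8.83, 8.85, 8.80 and 8.68 in wild-type arrays, with 3 of 4 transgenic arrays below every wild-type array (log2 fold -0.42, limma adjusted p = 0.283).

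None of the 9 measured members passed at a limma adjusted p below 0.05, where 1.69% of all genes passed. All 9 log2 folds were negative, against 50.3% of all genes and 50.7% of those at or above the median gene. The members' median log2 fold, transgenic minus wild type, was -0.38, against -0.0016 over all genes and -0.0047 over genes at or above the median gene. For 4 of the 9, H2-Ab1, H2-Eb1, H2-Oa and Ciita, every transgenic array lay below every wild-type array, against 4.94% of all genes. At an unadjusted p below 0.05 in limma, 5 of the 9 were lower in transgenic arrays (H2-Ab1, H2-Eb1, H2-DMb2, H2-Oa and Ciita), against 6.6% of all genes. The genes were picked with earlier results of these data known and share regulators and arrays, so no test of the set as a whole is given. The cDC markers Flt3 and Zbtb46 had differences close in size to the members' median (-0.37 and -0.42). Cd24a, from the same list, was higher in transgenic arrays (0.70). Over all 14 cDC markers the median was -0.0023, and 7 had a negative fold. The part of these markers in the class II values was not tested. In bulk RNA, fewer cells of a type and less RNA per cell cannot be told apart.

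Ciita had the largest difference of the members. It was at 7.76, 8.44, 7.97 and 6.61 on transgenic replicates 1 to 4, against 8.62, 9.02, 8.80 and 8.50 on wild-type replicates 1 to 4. The groups did not overlap, but transgenic replicate 2 lay only just under wild-type replicate 4, and transgenic replicate 4 lay far below the other 3. The means were 7.70 ± 0.78 in transgenic and 8.74 ± 0.23 in wild-type arrays (SD, n = 4 each), which is 2.06-fold lower in transgenic arrays and a log2 fold of -1.04 (SE 0.32, 95% interval -1.75 to -0.33). The limma adjusted p was 0.158, from an unadjusted p of 0.00856. Without transgenic replicate 4 the log2 fold of Ciita was -0.68 (SE 0.18, 95% interval -1.09 to -0.26; limma adjusted p = 0.113). Ciita is transcribed from several promoters that different cell types use, and its single probe set does not separate them.

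**Figure D2:**
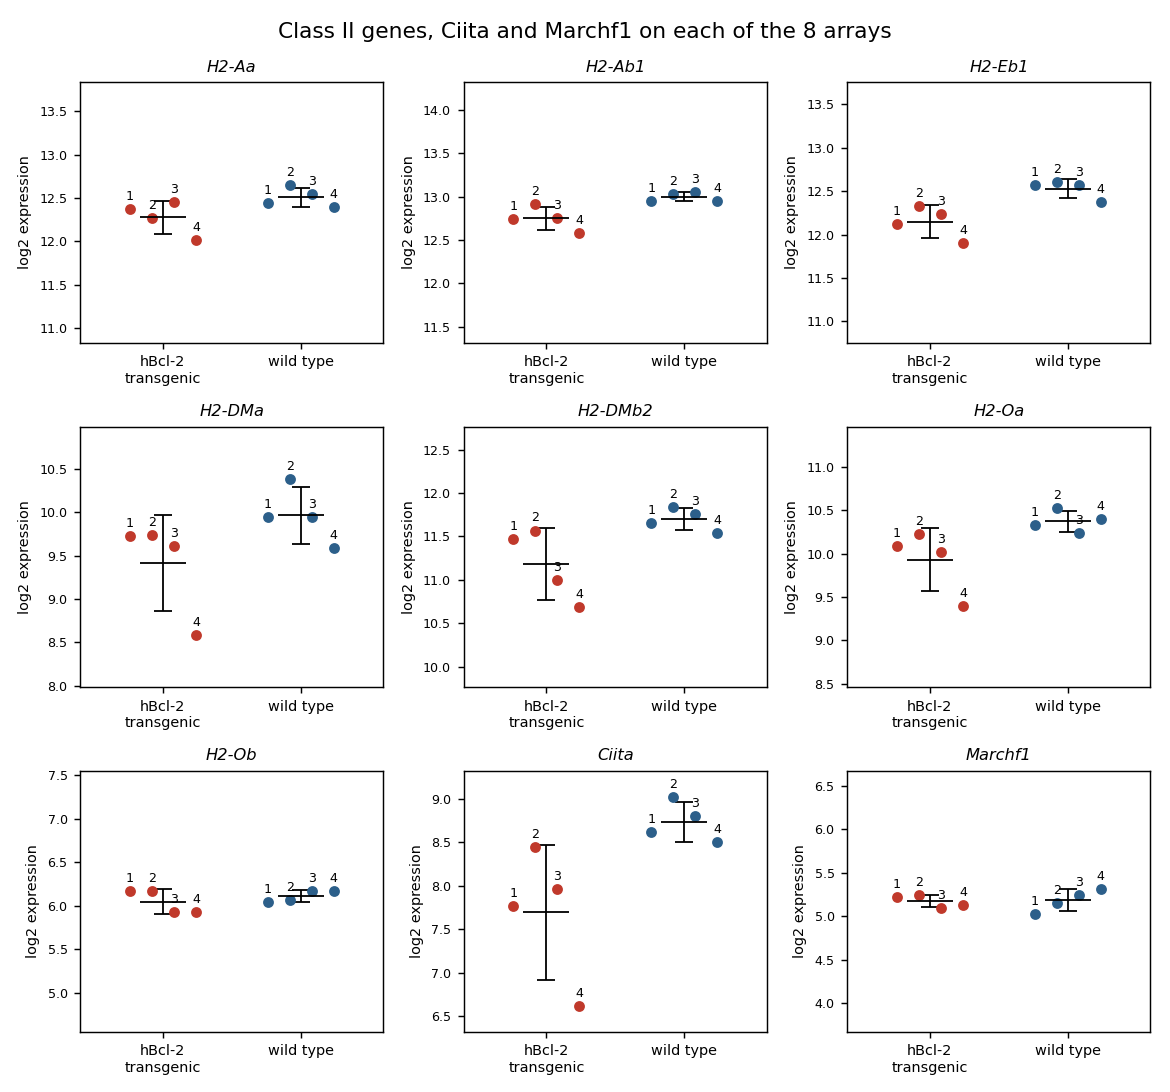
Log2 expression of the 9 measured members on each of the 4 hBcl-2 transgenic arrays (red) and the 4 wild-type arrays (blue), with the replicate number beside each point and the mean and SD in black. Every panel spans 3 log2 units; Ciita has the widest gap between groups and transgenic replicate 4 is the lowest transgenic array in 8 panels.

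The chains of the peptide-binding molecules differed by less than Ciita. H2-Aa, the alpha chain of I-A, was at 12.37, 12.27, 12.45 and 12.02 on transgenic replicates 1 to 4, against 12.44, 12.65, 12.54 and 12.39 on wild-type replicates 1 to 4. Here 3 of 4 transgenic arrays lay below every wild-type array and transgenic replicate 3 lay within the wild-type range. H2-Ab1, the beta chain of I-A, was at 12.74, 12.92, 12.76 and 12.58 in transgenic arrays, against 12.95, 13.03, 13.05 and 12.95 in wild-type arrays. These groups did not overlap, with a gap of a few hundredths of a log2 unit between the nearest arrays. The log2 folds were -0.23 (SE 0.12, 95% interval -0.50 to 0.05; limma adjusted p = 0.483) for H2-Aa and -0.25 (SE 0.11, 95% interval -0.48 to -0.01; limma adjusted p = 0.352) for H2-Ab1. Without transgenic replicate 4 they were -0.14 and -0.19.

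H2-Eb1 encodes the beta chain of I-E, whose alpha chain is not made in C57BL/6 mice, so its protein has no surface partner in this strain. Its transcript was at 12.12, 12.33, 12.24 and 11.90 on transgenic replicates 1 to 4, against 12.57, 12.61, 12.57 and 12.37 on wild-type replicates 1 to 4. All transgenic arrays lay below all wild-type arrays. The log2 fold was -0.38 (SE 0.12, 95% interval -0.65 to -0.11; limma adjusted p = 0.175), and -0.30 without transgenic replicate 4 (adjusted p = 0.225 in limma). The class II chains lie near the top of the array's scale, which reached 13.86 to 13.95.

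The neighbouring genes of the region that are not members did not pass either. H2-Eb2, a gene next to H2-Eb1 with related sequence, was at 10.63, 10.77, 10.94 and 10.76 in transgenic arrays, against 10.52, 10.63, 10.71 and 10.56 in wild-type arrays, a log2 fold of 0.17 (SE 0.11, 95% interval -0.07 to 0.41; limma adjusted p = 0.581). Its fold had the opposite sign to that of H2-Eb1, and 3 of its 4 transgenic values lay above every wild-type value. Its promoter stretch above also holds GCAAC followed by TGATTGG, and the bearing of these letters on its level was not tested. H2-Ea, annotated as a transcribed pseudogene, was at 5.80 ± 0.58 in transgenic and 6.38 ± 0.54 in wild-type arrays (SD, n = 4 each; log2 fold -0.58, limma adjusted p = 0.486).

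Of the peptide editors, the H2-DM chains had larger negative folds than the chains of I-A, with a wider spread. H2-DMa, the alpha chain of H2-DM, was at 9.73, 9.73, 9.61 and 8.59 on transgenic replicates 1 to 4, against 9.95, 10.38, 9.94 and 9.58 on wild-type replicates 1 to 4. Only transgenic replicate 4 lay below every wild-type array, by almost a whole log2 unit, and the other 3 lay inside the wild-type range. The log2 fold of H2-DMa was -0.55 (SE 0.26, 95% interval -1.12 to 0.03; limma adjusted p = 0.409), and -0.27 (SE 0.17) without transgenic replicate 4.

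H2-DMb2, a beta chain of H2-DM, was at 11.47, 11.57, 10.998 and 10.69 on transgenic replicates 1 to 4, against 11.66, 11.83, 11.76 and 11.54 on wild-type replicates 1 to 4. Transgenic replicates 3 and 4 lay well below the wild-type range, replicate 1 just below it and replicate 2 at its lower edge. The log2 fold was -0.52 (SE 0.19, 95% interval -0.93 to -0.10; limma adjusted p = 0.240), and -0.35 without transgenic replicate 4. H2-DMb1, the closely related neighbour, was at 7.00, 6.36, 6.26 and 5.73 in transgenic arrays, against 6.73, 7.24, 7.16 and 6.64 in wild-type arrays (log2 fold -0.60, SE 0.25; limma adjusted p = 0.315). Whether their probe sets also see each other's transcripts was not tested, so the values of H2-DMb1 and H2-DMb2 are uncertain as those of separate genes.

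H2-Oa, the alpha chain of the H2-DM inhibitor H2-O, was at 10.09, 10.23, 10.02 and 9.40 on transgenic replicates 1 to 4, against 10.33, 10.52, 10.24 and 10.40 on wild-type replicates 1 to 4. The groups did not overlap, although transgenic replicate 2 and wild-type replicate 3 were nearly equal. The log2 fold was -0.44 (SE 0.17, 95% interval -0.82 to -0.06; limma adjusted p = 0.289), and -0.26 without transgenic replicate 4 (adjusted p = 0.307 in limma). H2-Ob, the beta chain of H2-O, was dim and close in both groups, at 6.17, 6.17, 5.93 and 5.92 in transgenic arrays, against 6.05, 6.06, 6.17 and 6.17 in wild-type arrays. Its log2 fold was -0.06 (SE 0.11, 95% interval -0.31 to 0.18; limma adjusted p = 0.878), and -0.023 without transgenic replicate 4.

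Marchf1, the ligase that removes class II from the surface of immature cells, was dim on every array. It was at 5.22, 5.24, 5.10 and 5.13 on transgenic replicates 1 to 4, against 5.02, 5.16, 5.25 and 5.31 on wild-type replicates 1 to 4. The transgenic values lay inside the wild-type range. The log2 fold was -0.01 (SE 0.11, 95% interval -0.25 to 0.22; limma adjusted p = 0.981). A signal this dim is hard to tell from background, and the interval bounds only the probe set's signal.

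**Figure D3:**
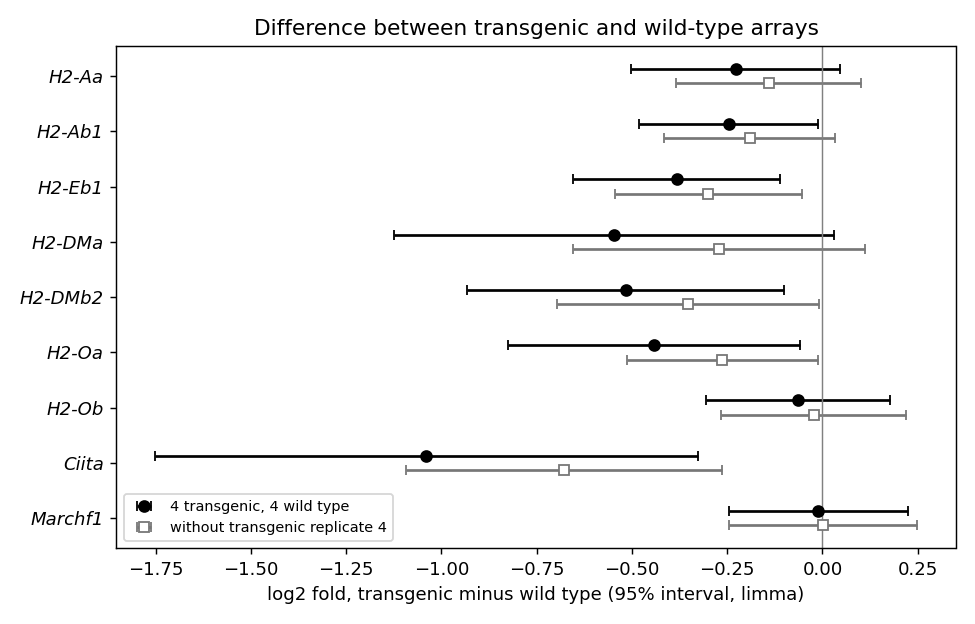
Log2 fold (transgenic minus wild type) of each member with its 95% interval from limma, with all 8 arrays (filled circles) and without transgenic replicate 4 (open squares). Leaving out that array gives -0.68 in place of -1.04 for Ciita and -0.27 in place of -0.55 for H2-DMa, and 8 of 9 folds stay below 0.

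Without transgenic replicate 4 the members' median log2 fold was -0.26, and 0 of 9 passed limma's adjusted test, against 1.71% of all genes. At an unadjusted p below 0.05, 4 members were lower in transgenic arrays, against 7.12% of all genes. Groups did not overlap for 4 members, against 7.81% of all genes lower in this way with 3 transgenic arrays. Marchf1 was then at a log2 fold of 0.0019. The members that moved most on that array were Ciita, which was 1.45 log2 units below the mean of the other 3 transgenic arrays (difference -1.45), H2-DMa (-1.10), H2-Oa (-0.71) and H2-DMb2 (-0.65), against a median of -0.11 over genes at or above the median gene. Over all genes that median was 0.035, and the array's median over all probe sets (5.15) was the highest of the 8 arrays. It was thus not low throughout, and what makes these members low on it was not tested.

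Within each group the members went up and down together to some extent. Transgenic replicate 4 was the lowest transgenic array for 8 of 9 members, all but Marchf1. The share was 28.4% of all genes and 43% of genes at or above the median gene. Transgenic replicate 2 had the highest median deviation of the members from the group mean (0.19, against -0.26 for replicate 4). Among wild-type arrays, replicate 2 was the highest for 6 of 9 members (H2-Aa, H2-Eb1, H2-DMa, H2-DMb2, H2-Oa and Ciita), against 21.9% of all genes and 24.6% of genes at or above the median gene. Wild-type replicate 4 was the lowest for 6 of 9 members (H2-Aa, H2-Ab1, H2-Eb1, H2-DMa, H2-DMb2 and Ciita), against 26.5% of all genes and 26% of genes at or above the median gene. Ciita and H2-DMa had the widest range over the 8 arrays. In H2-Ob and Marchf1, wild-type replicate 2 was not the highest wild-type array and replicate 4 not the lowest.

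**Figure D4:**
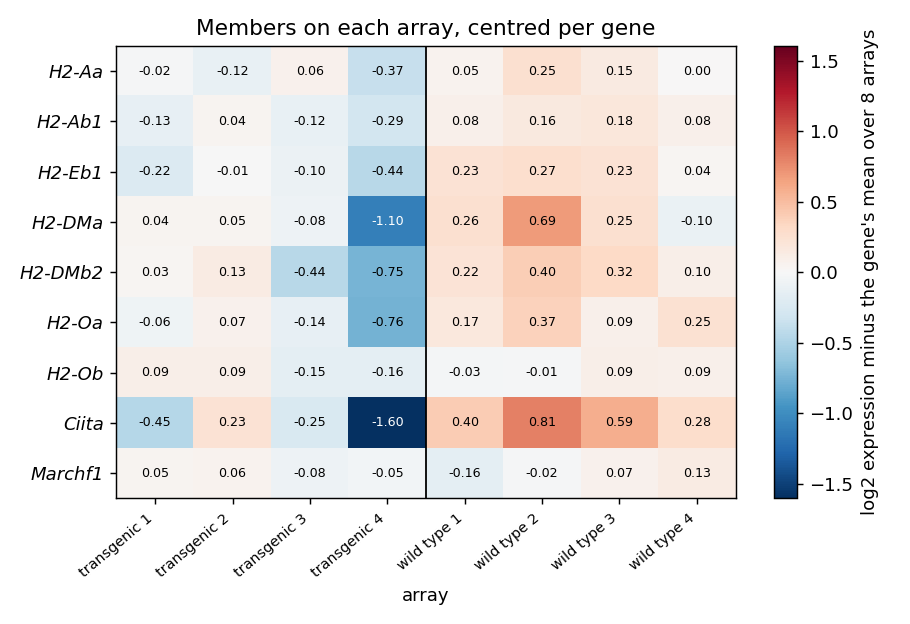
Log2 expression of each member on each array after subtracting that gene's mean over the 8 arrays, transgenic arrays left of the line and wild-type arrays right of it. Ciita and H2-DMa are lowest on transgenic replicate 4 (-1.60 and -1.10) and highest on wild-type replicate 2 (0.81 and 0.69).

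The genes whose profiles over the 8 arrays came nearest to a member were found by the root mean square difference of values centred per gene, among 10086 named genes whose mean reached that of the median gene. For Ciita they were Cd27, a receptor of the TNF receptor family (0.23 log2 units), Hspbap1 (0.24), the ion channel gene Hcn3 (0.25), Phldb1 (0.26) and Gosr2, which serves in Golgi vesicle transport (0.26). Of these Phldb1 passed limma's test, at 5.37 ± 0.53 in transgenic and 6.49 ± 0.09 in wild-type arrays (SD, n = 4 each; adjusted p = 0.0378). The nearest member to Ciita was H2-DMa (0.33), followed by H2-DMb2 (0.41) and H2-Oa (0.42). For H2-Ab1 the nearest were Tmem121 (0.042), Bnipl (0.050), Dock10 (0.051), Rbm25 (0.055) and Glcci1 (0.056). Since they were picked for likeness to genes that are lowest on transgenic replicate 4, they share the low value on that array by choice.

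The other genes of the pathway were taken from 6 lists. Of 68 measured, 1 rose, 4 fell and 63 did not pass, with 0.839% of all genes rising and 0.848% falling. These lists, too, were chosen with earlier results of these data known, so no test of the pathway is given. Without transgenic replicate 4, 1 rose and 3 fell, and Irf1 was the call lost. Irf1, an interferon-induced activator of Ciita, fell and was the only 1 of 17 measured regulators of Ciita to pass. It was at 9.32, 8.96, 9.44 and 8.99 on transgenic replicates 1 to 4, against 9.85, 9.79, 9.96 and 9.84 on wild-type replicates 1 to 4. Every transgenic array lay clearly below the wild-type range, with a log2 fold of -0.68 (SE 0.13, 95% interval -0.97 to -0.39; limma adjusted p = 0.0330). The call for Irf1 held without transgenic replicate 3 (adjusted p = 0.0303) and was lost without any other single array, where limma's adjusted p ran from 0.0529 to 0.1004 and the log2 fold stayed between -0.73 and -0.61. It was also lost without variance moderation (0.120) and with the replicate number as a block (0.0645).

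The other regulators of Ciita did not pass. Of the 17 measured, with Irf1, 5 were at an unadjusted p below 0.05 in limma, against 13.2% of all genes. Prdm1, which encodes the Ciita repressor BLIMP-1, was at 8.14 ± 0.29 in transgenic and 8.74 ± 0.15 in wild-type arrays (SD, n = 4 each; log2 fold -0.60, SE 0.15; limma adjusted p = 0.0889). Irf8, a transcription factor of dendritic cells, was at 10.09 ± 0.30 in transgenic and 10.58 ± 0.12 in wild-type arrays (log2 fold -0.49, limma adjusted p = 0.161). For both, the groups did not overlap. Socs1, an inhibitor of interferon signalling, had the highest statistic of this list (log2 fold 0.34, SE 0.10; limma adjusted p = 0.143), and Il10, a cytokine that lowers class II, was dim (4.79 in transgenic and 4.47 in wild-type arrays). Spi1, which encodes PU.1, was at 10.05 in both groups, and the median of the list was -0.17.

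None of the 12 measured genes of the class II promoter complex and its partners passed limma's adjusted test (2 at an unadjusted p below 0.05, against 13.2% of all genes). A negative fold was seen for 11, against 50.3% of all genes, with a median of -0.16. The RFX subunits gave log2 folds of -0.31 for Rfx5, -0.23 for Rfxank and -0.12 for Rfxap, each with groups that overlapped. Without transgenic replicate 4 these were -0.08, -0.15 and -0.11. Smarca4, the BRG1 ATPase of chromatin remodelling, was at 9.40, 9.27, 9.32 and 9.05 in transgenic arrays, against 9.61, 9.67, 9.77 and 9.82 in wild-type arrays. Its groups did not overlap (log2 fold -0.46, SE 0.11; limma adjusted p = 0.0772). Nlrc5, the relative of Ciita that acts on class I genes, was at 9.14, 8.53, 9.18 and 8.83 in transgenic arrays, against 9.26, 9.34, 9.73 and 9.55 in wild-type arrays, which did not overlap either (log2 fold -0.55, SE 0.17; limma adjusted p = 0.150). Nfyb was the only 1 of the 12 with a positive fold (0.36), and Crebbp had the next highest statistic (log2 fold -0.03). Leaving out transgenic replicate 4 gave 0.03 for Crebbp, -0.39 for Smarca4 and -0.52 for Nlrc5.

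Of 13 measured genes of invariant chain cleavage and antigen processing, 0 passed limma's adjusted test, and the median was -0.09. At an unadjusted p below 0.05 in limma there were 4, against 13.2% of all genes. Sppl2a, the membrane protease that clears the last fragment of the invariant chain, had the lowest statistic (10.16 ± 0.08 in transgenic and 10.55 ± 0.03 in wild-type arrays, SD, n = 4 each; log2 fold -0.40, limma adjusted p = 0.0760), followed by the lysosomal thiol reductase gene Ifi30 (log2 fold -0.26, limma adjusted p = 0.230). Both had groups that did not overlap. Lamp1, a protein of the lysosomal membrane (log2 fold 0.32, limma adjusted p = 0.196), and Ctss, the cathepsin that trims the invariant chain in dendritic cells (0.21, limma adjusted p = 0.380), had the highest statistics, again with groups that did not overlap.

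Turnover of class II gave no call in limma among 14 measured genes (2 at an unadjusted p below 0.05, against 13.2% of all genes). The median was 0.02. Tsg101, a sorting factor for ubiquitinated cargo, was at 8.35, 8.36, 8.45 and 8.57 in transgenic arrays, against 7.75, 8.11, 8.03 and 8.09 in wild-type arrays (log2 fold 0.43, SE 0.12; limma adjusted p = 0.109). Its groups did not overlap. Ube2d2a, which encodes a ubiquitin-conjugating enzyme, was at a log2 fold of 0.27 (limma adjusted p = 0.391). Marchf2 was at -0.58 (SE 0.17; limma adjusted p = 0.144) and Ube2d1, from the same enzyme family as Ube2d2a, at -0.45 (limma adjusted p = 0.397).

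The list of class II ligands and costimulation held the other 4 calls among 9 measured genes, against 1.69% of all genes called. Of the 9, 5 were at an unadjusted p below 0.05 in limma, against 13.2% of all genes. Cd4, the co-receptor that binds class II and is also made by some dendritic cells, rose, with 6.72, 6.91, 6.83 and 6.35 in transgenic arrays, against 5.46, 5.59, 5.54 and 5.51 in wild-type arrays (limma adjusted p = 0.00437). Cd40, the receptor for help from CD4+ T cells (log2 fold -1.37), Cd274, the gene of PD-L1 (-0.75), and Fscn1, an actin-bundling protein of mature dendritic cells (-0.69), fell (limma adjusted p = 0.00644, 0.0152 and 0.0235). None of these 4 passed without variance moderation, where limma's adjusted p ran from 0.0507 to 0.0929. Leaving out 1 array ended the call of Cd274 for wild-type replicate 2 or 3 (0.0582 and 0.0578) and that of Fscn1 for transgenic replicate 2 or any wild-type array (0.0625 to 0.0780), and the replicate block also ended that of Fscn1 (0.0630). Pdcd1lg2, which encodes PD-L2, was at -0.77 and did not pass (limma adjusted p = 0.111), nor did Lag3, an inhibitory receptor for class II (0.66, limma adjusted p = 0.403).

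**Figure D5:**
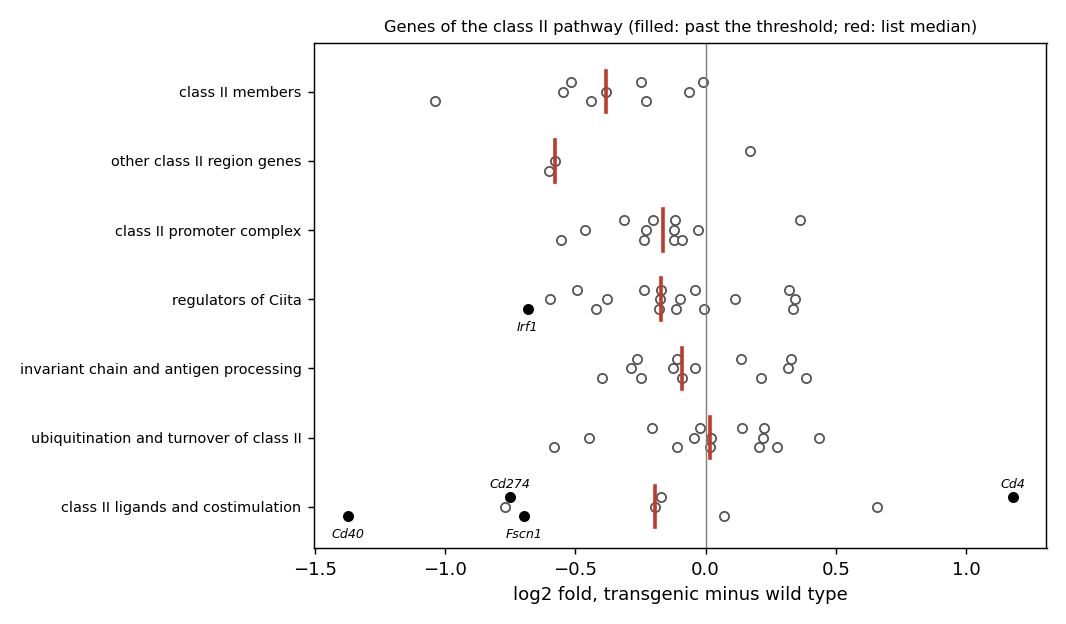
Log2 fold (transgenic minus wild type) of each measured gene in the members' list and the 6 other lists of the class II pathway, with the list median in red. Filled points passed limma's test over all genes; they are Irf1, Cd40, Cd274 and Fscn1 below 0 and Cd4 above 0.

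Class II genes are also expressed by other cells that a sort can carry over, and their markers were read beside the members. The mean log2 level of 12 measured B cell markers was 5.32 to 5.70 in transgenic arrays and 5.31 to 5.73 in wild-type arrays, and 0 of 12 passed limma's test, adjusted or unadjusted. Their median log2 fold was -0.09. Among them Cd79a was at 6.11 to 7.12 in transgenic and 5.33 to 7.26 in wild-type arrays, and Ms4a1, Pax5 and Ebf1 were dim in both. Cd79b, the brightest of the list, was at 7.43, 8.18, 6.74 and 6.11 on transgenic replicates 1 to 4. On wild-type replicates 1 to 4 it was at 7.02, 6.36, 6.68 and 6.42 (log2 fold 0.49, limma adjusted p = 0.654). The 10 plasmacytoid dendritic cell markers had a median log2 fold of 0.51, with 1 of 10 negative, and averaged 6.43 to 7.97 in transgenic arrays, highest on replicate 2, and 6.06 to 6.68 in wild-type arrays, with 1 called, Bst2, which rose (limma adjusted p = 0.0204). In limma, 2 of these 10 were at an unadjusted p below 0.05, against 13.2% of all genes. Ly6c2, which also stands in the macrophage and monocyte list, was at 8.28, 10.38, 5.81 and 7.11 on transgenic replicates 1 to 4. In wild type it was at 5.46 to 6.83 (limma adjusted p = 0.346). Klk1 was at 8.51 on transgenic replicate 2 and at 4.08 to 7.10 in wild type. Siglech was at 7.52 on transgenic replicate 2 and at 5.67 to 6.29 on the other transgenic arrays, against 5.18 to 6.07 in wild type. Among the members, Ciita, H2-Ab1, H2-Eb1, H2-DMa, H2-DMb2, H2-Oa and Marchf1 had their highest transgenic value on replicate 2, and H2-Aa and H2-Ob did not. The share of all genes highest on that array was not determined, so this count has no background. Siglech was lowest on transgenic replicate 3 and its highest wild-type value was on replicate 3. Ciita was lowest on transgenic replicate 4 and its highest wild-type value was on replicate 2. A link between the 2 genes was not tested.

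The 11 macrophage and monocyte markers averaged 6.65 to 7.44 in transgenic and 6.33 to 6.65 in wild-type arrays, with Adgre1 and Csf1r rising (limma adjusted p = 0.0128 and 0.0183). Their median log2 fold was 0.30, with 3 of 11 negative, against 50.3% of all genes. Of the 11, 2 rose in limma's adjusted test, against 0.839% of all genes. In limma, 5 were at an unadjusted p below 0.05, against 13.2% of all genes. Lyz2 (10.24 to 11.23 in transgenic and 10.38 to 11.35 in wild-type arrays) and Cd68 (9.90 to 10.48 in transgenic and 9.67 to 10.06 in wild-type arrays) were bright, and Mertk (4.61 to 4.79 in transgenic and 4.56 to 4.75 in wild-type arrays) and Fcgr1 (4.42 to 4.82 in transgenic and 4.35 to 4.72 in wild-type arrays) were dim. The 10 markers of CD11b- cDC (cDC1) averaged 6.04 to 7.05 in transgenic and 6.45 to 6.87 in wild-type arrays, lowest on transgenic replicate 4 and highest on replicate 2. None passed limma's adjusted test (2 at an unadjusted p below 0.05, against 13.2% of all genes), with a median log2 fold of -0.17. The 10 T cell markers averaged 6.09 to 6.33 in transgenic and 5.94 to 6.62 in wild-type arrays, and only Cd4 passed, with a median log2 fold of -0.15. In limma, 2 of these 10 were at an unadjusted p below 0.05. On an RMA scale no marker has a true zero. The part of these cells in the class II values was not tested.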

How the data were processed

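Expression was measured on 8 arrays, 4 hBcl-2 transgenic and 4 wild type, from 2.5 ng of RNA per sample, amplified and labelled with biotin per the labels' protocols. The log2 values as deposited by the authors came from the RMA method, run in Partek; the submitters' processing notes say so and name no versions. RMA makes the arrays' distributions alike, so a shift of all genes would not be seen. No source used here gives a genome build or filters. The number of arrays limits precision.

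Of 34390 probe sets, 23521 name 1 gene in the platform annotation and were used; per gene the set with the highest mean over the 8 arrays was taken. Transgenic minus wild type was fitted with lmFit and eBayes (limma 3.58.1, R 4.3.3) over 22180 genes, with Benjamini-Hochberg adjustment and a threshold of 0.05; the procedure was tested on simulated data. Errors are SDs or moderated SEs. Promoter windows were searched in Python 3.11.15, and figures drawn with matplotlib 3.10.9.

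The members, lists and motifs were chosen with earlier results of these data known, the motifs and their spacing also with the sequences in view. Text names all members, genes past the threshold and up to 2 highest and 2 lowest per pathway list by moderated statistic, up to 4 defining markers per marker list, and the 5 nearest profiles to Ciita and H2-Ab1. Other pathway genes named (Rfx5, Rfxank, Rfxap, Spi1, Pdcd1lg2) were chosen after their values were seen. So were the markers Zbtb46, Ccr7, Cd24a, Cd79b, Ly6c2 and Klk1. Alternatives were other variance moderation, a filter on dim genes, 2 renormalizations, other uses of probe sets, array weights, the replicate block, another threshold and leaving out each array.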

Additional observations from a re-analysis of the deposited data

Results flagged for a closer look

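H2-DMa on transgenic replicate 4 lay far from the other transgenic arrays. It was at 8.59, against 9.61 to 9.73 on the other 3 transgenic arrays and 9.58 to 10.38 on the wild-type arrays, and its gap to the nearest transgenic array was 0.888 of the group's range (past Dixon's critical value for a group of 4 at 95%). Of 18 groups of values of the members tested in this way it was the only 1 past the limit, and chance alone passes about 1 in 20.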

How the results depend on the processing

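None of the 9 members passed under any of the 18 alternatives in limma that gave all of them a value, nor did the 8 others under the filter on dim genes, which left out Marchf1. Over these, the lowest adjusted p in limma was 0.0731, for H2-Eb1, and that of Ciita ran from 0.0826 to 0.394. The members' median log2 fold stayed between -0.44 and -0.26, both ends from leaving out 1 array. All members but Marchf1 kept a negative fold throughout, that of Ciita from -1.29 to -0.68. Marchf1 was at 0.0030 with array weights and between -0.065 and 0.031 when 1 array was left out.

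The count of all genes past the threshold, 374, was 35 without variance moderation, 747 at a threshold of 0.1 and 106 to 379 when 1 array was left out. That of the other pathway genes, 5, was 0 without variance moderation (22 of 68 at an unadjusted p below 0.05 in limma, against 12% of all genes), 8 at a threshold of 0.1 and 2 to 6 when 1 array was left out. With the replicate block, 187 genes and 3 pathway genes passed. The replicate numbers were not taken to pair the samples: the deviations of same-numbered arrays correlated at -0.032 to 0.079 over genes, and 1 of 4 transgenic arrays matched its own number best. Values near the dim end of the scale, such as those of H2-Ob and Marchf1, bound the signal rather than the transcript.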
